A study of Rattus norvegicus with 8 samples.

Results

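The genes described here encode the proteins that hold chondrocytes to their matrix and to other cells: integrin alpha and beta chains, laminins, nidogens, cadherins, and the immunoglobulin-type receptors Icam and Vcam1. They were chosen by symbol alone, from the integrin (Itga and Itgb), laminin (Lama, Lamb and Lamc), nidogen, Icam, Vcam1 and cadherin (Cdh) names, with Itgam left out. No measured value entered this rule, but it was set with earlier results of these data known. On an Affymetrix RAT230_2.0 array 80 probe sets named 1 such gene each, of 20826 probe sets that named a single gene, which gave 53 genes of 14217. The 53 genes were 14 integrin alpha chains, 7 integrin beta chains, 10 laminin chains, 2 nidogens, 4 Icam and Vcam genes and 16 cadherins. For the 18 genes with several probe sets, the brightest by mean log2 intensity stands for the gene.

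Primary chondrocytes came from the femoral condyles of Sprague Dawley rats that were 1 day old. The cells received no genetic change, were grown as a monolayer to confluence and were kept in serum-free medium overnight before treatment. All were pretreated for 30 minutes, either with U0126, an inhibitor of the kinases MEK1/2 that activate ERK1/2, or with its solvent DMSO. TNFα at 30 ng/ml or its vehicle, bovine serum albumin, was then present for 24 hours. The 4 treatments are called TNFα (DMSO then TNFα), U0126 and TNFα, U0126 (U0126 then vehicle), and DMSO (DMSO then vehicle), with 2 arrays each, 1 from each of 2 independent experiments. Values are given in the order experiment 1, experiment 2. They are array intensities, which have no fixed unit, so each gene is tested only against itself. Sums over marker genes are led by the brightest of them and do not measure cell numbers. The comparisons asked which adhesion genes responded to TNFα, and whether the response differed when MEK1/2 was inhibited.

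Integrins are receptors of an alpha and a beta chain that bind matrix proteins outside the cell and the actin cytoskeleton inside it, and in cartilage they are the main link between the chondrocyte and collagen or fibronectin. Laminins, trimers of an alpha, a beta and a gamma chain, and nidogens, which bridge laminin and type IV collagen, form basement membranes and are also found around chondrocytes. Cadherins join like cells to each other, while Icam1 and Vcam1 are bound by integrins of leukocytes and are known targets of the transcription factor NFκB.

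With TNFα, 7 of the 53 genes rose over DMSO (Vcam1, Icam1, Lama5, Itgav, Itga1, Lamb1 and Cdh13), 3 fell (Itga11, Cdh10 and Itgb3) and 43 did not pass the test. The test was limma over all 31042 probe sets with the experiment as a block, and a gene passed at a Benjamini-Hochberg adjusted p below 0.05. The 10 genes are 18.9% of the 53, beside 5.19% of all probe sets (3.41% higher, 1.78% lower) and 6.33% of the 14217 genes when each was likewise given by 1 probe set. The median log2 fold change was -0.05 over the 53 genes and -0.02 over all probe sets, and no test of the group as a whole was run. At an unadjusted p below 0.05, 11 genes were higher and 10 lower, beside 25.9% of all probe sets. In direction, 17 genes were higher with TNFα than with DMSO in both experiments, 23 were lower in both and 13 went opposite ways. Icam1 and Vcam1 passed whichever 1 of the 8 arrays was left out, and they were the 2 that passed without the DMSO array of experiment 1. Without the TNFα array of experiment 1 they passed with Lama5 and Itga11, and with no experiment term none of the 10 did.

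**Figure D1:**
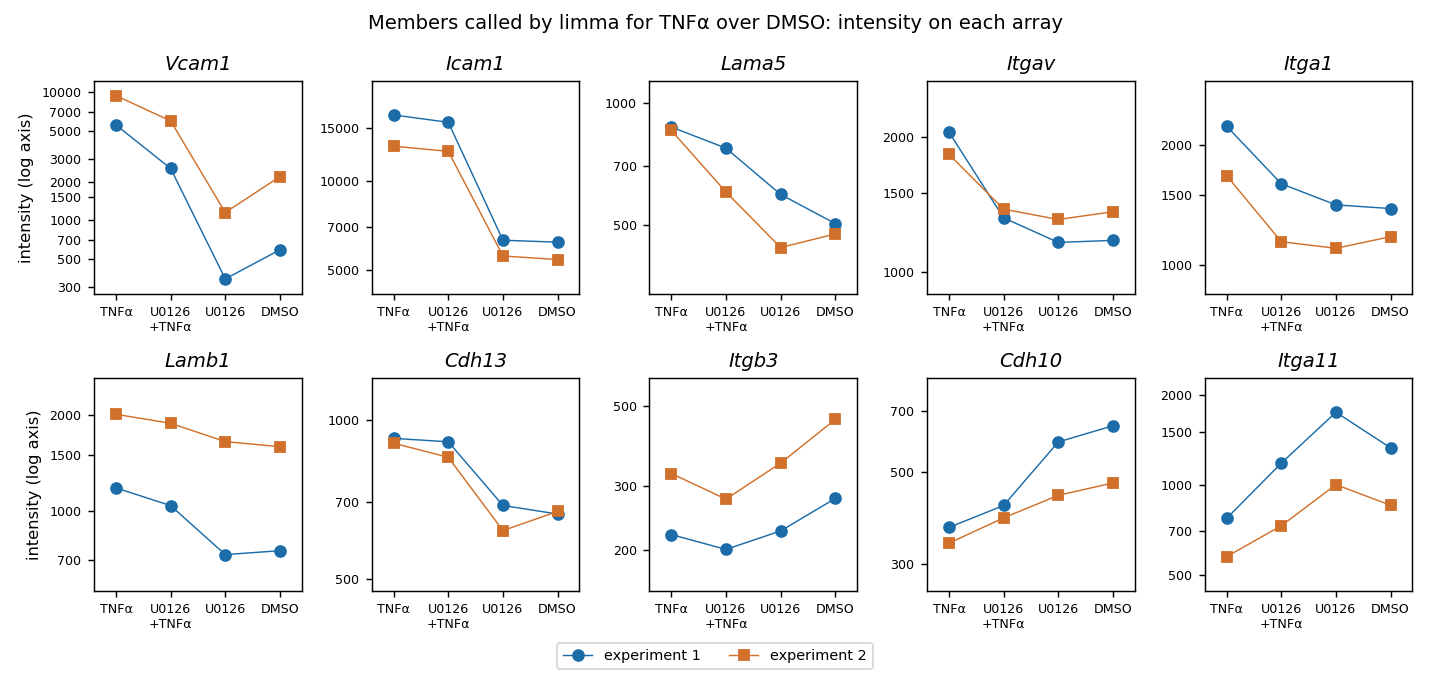
Intensity (log axis, different range in each panel) of the 10 genes that passed limma for TNFα over DMSO, on each of the 8 arrays. Circles are experiment 1 and squares experiment 2. Icam1 lies at 12537 or more on the 4 arrays with TNFα and at 6303 or less on the 4 without, while Itgav and Itga1 stand out mainly with TNFα alone.

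Of the Icam and Vcam genes, 2 of 4 rose. Vcam1, the endothelial and stromal receptor for the leukocyte integrin that pairs Itga4 with Itgb1, had intensities of 5532 and 9372 with TNFα, 2527 and 5944 with U0126 and TNFα, 347 and 1145 with U0126, and 586 and 2184 with DMSO. The 4 arrays with TNFα lay above the 4 without, and within each experiment the order of the 4 treatments was the same. TNFα raised Vcam1 9.45-fold in experiment 1 and 4.29-fold in experiment 2 (log2 fold change 2.67 ± 0.25 SE, adjusted p = 0.00289). Icam1, the receptor for the integrins that hold Itgb2, had 16620 and 13052 with TNFα, 15699 and 12537 with U0126 and TNFα, 6303 and 5582 with U0126, and 6210 and 5426 with DMSO. The arrays with TNFα did not overlap those without, and the pairs with and without U0126 were close to each other. Icam1 rose 2.68-fold and 2.41-fold (log2 1.34 ± 0.07, adjusted p = 4.93e-04).

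The promoters of Vcam1, Icam1 and Itgav are shown because these are the genes that rose with TNFα and held an NFκB motif in the window searched. They are the 250 bases before the annotated start, from RefSeq on the rat build GRCr8, given 5′ to 3′ on the gene's strand: Vcam1 at chr2:206742784-206743033, minus strand, Icam1 at chr8:27829595-27829844, plus strand, and Itgav at chr3:89245132-89245381, plus strand. Capitals mark the NFκB motif on either strand, the ETS motif CCGGAA on either strand and, in Icam1, GGAAATTCC.
Vcam1: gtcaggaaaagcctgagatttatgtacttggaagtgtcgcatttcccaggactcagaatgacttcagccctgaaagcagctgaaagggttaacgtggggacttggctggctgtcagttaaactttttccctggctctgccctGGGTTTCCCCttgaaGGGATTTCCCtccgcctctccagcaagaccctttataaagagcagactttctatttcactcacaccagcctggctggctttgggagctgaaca
Icam1: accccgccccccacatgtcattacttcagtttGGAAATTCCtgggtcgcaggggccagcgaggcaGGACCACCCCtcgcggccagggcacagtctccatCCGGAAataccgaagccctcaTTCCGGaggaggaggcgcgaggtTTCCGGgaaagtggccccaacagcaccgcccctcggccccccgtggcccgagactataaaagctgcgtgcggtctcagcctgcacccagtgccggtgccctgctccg
Itgav: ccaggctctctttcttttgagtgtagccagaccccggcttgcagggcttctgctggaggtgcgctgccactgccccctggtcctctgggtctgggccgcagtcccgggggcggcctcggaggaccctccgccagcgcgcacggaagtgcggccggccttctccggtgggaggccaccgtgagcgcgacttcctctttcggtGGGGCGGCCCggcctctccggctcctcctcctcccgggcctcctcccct
The window of Vcam1 held 2 NFκB motifs, which began 108 and 93 bases before the start. That of Icam1 held 1 at 185 bases, and 3 ETS motifs at 151, 130 and 107 bases. GGAAATTCC, 218 bases before the Icam1 start, lacks a base of the NFκB motif searched and was picked after the window had been read. It occurred in 0.332% of all windows. Itgav held 1 NFκB motif 49 bases before its start.

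A window of 300 bases, 250 before and 50 after the start, was at hand for 36 of the 53 genes, Cdh13 not among them. In these windows the NFκB motif was in 13 of the 36 (36.1%), beside 26.3% of all 33469 windows. The AP-1 motif TGANTCA was in 8.33% of the 36 and 7.33% of all, the ETS motif in 5 of the 36 and 5004 of all 33469, and the EGR motif GCGNGGGCG in 11.1% and 4.98%. An EGR motif lay 77 bases before the start of Lamb1, and the windows of Itga1 and Lama5 held none of these motifs. A match describes the letters only, and motifs were searched on both strands with overlaps allowed.

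Neither Icam2 nor Icam5, which are known from endothelial cells and platelets and from neurons, passed the test. Icam2 had 177 and 195 with TNFα, against 192 and 194 with DMSO, and Icam5 stayed between 223 and 232 on all 8 arrays. The leukocyte integrin chains measured, Itgal, Itgad, Itgax, Itgae, Itgb2 and Itgb7, did not pass in any of the comparisons. Itga4, of the Vcam1 receptor, was not analysed because no probe set named it alone. Itgal, the alpha chain of the main Icam1 receptor, had 204 and 260 with TNFα, against 259 and 309 with DMSO (log2 -0.30, adjusted p = 0.0595). It passed under 1 of the 16 alternatives.

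As the RNA came from whole cultures, fewer cells of a type and less RNA per cell cannot be told apart. Of 13 macrophage and leukocyte markers measured, Cd68 rose with TNFα (log2 0.85, adjusted p = 0.0228) and the other 12 did not pass, with summed intensities of 4646 and 5644 with TNFα, against 3965 and 5349 with DMSO. Ptprc, which marks all leukocytes, stayed between 60.6 and 69.7 on the 8 arrays. None of 8 endothelial markers passed, their sums were 3015 and 3180 with TNFα, against 3236 and 3338 with DMSO, and Pecam1 stayed between 72.7 and 80.4. The part of these cells in the values of Vcam1 and Icam1 was not tested.

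**Figure D2:**
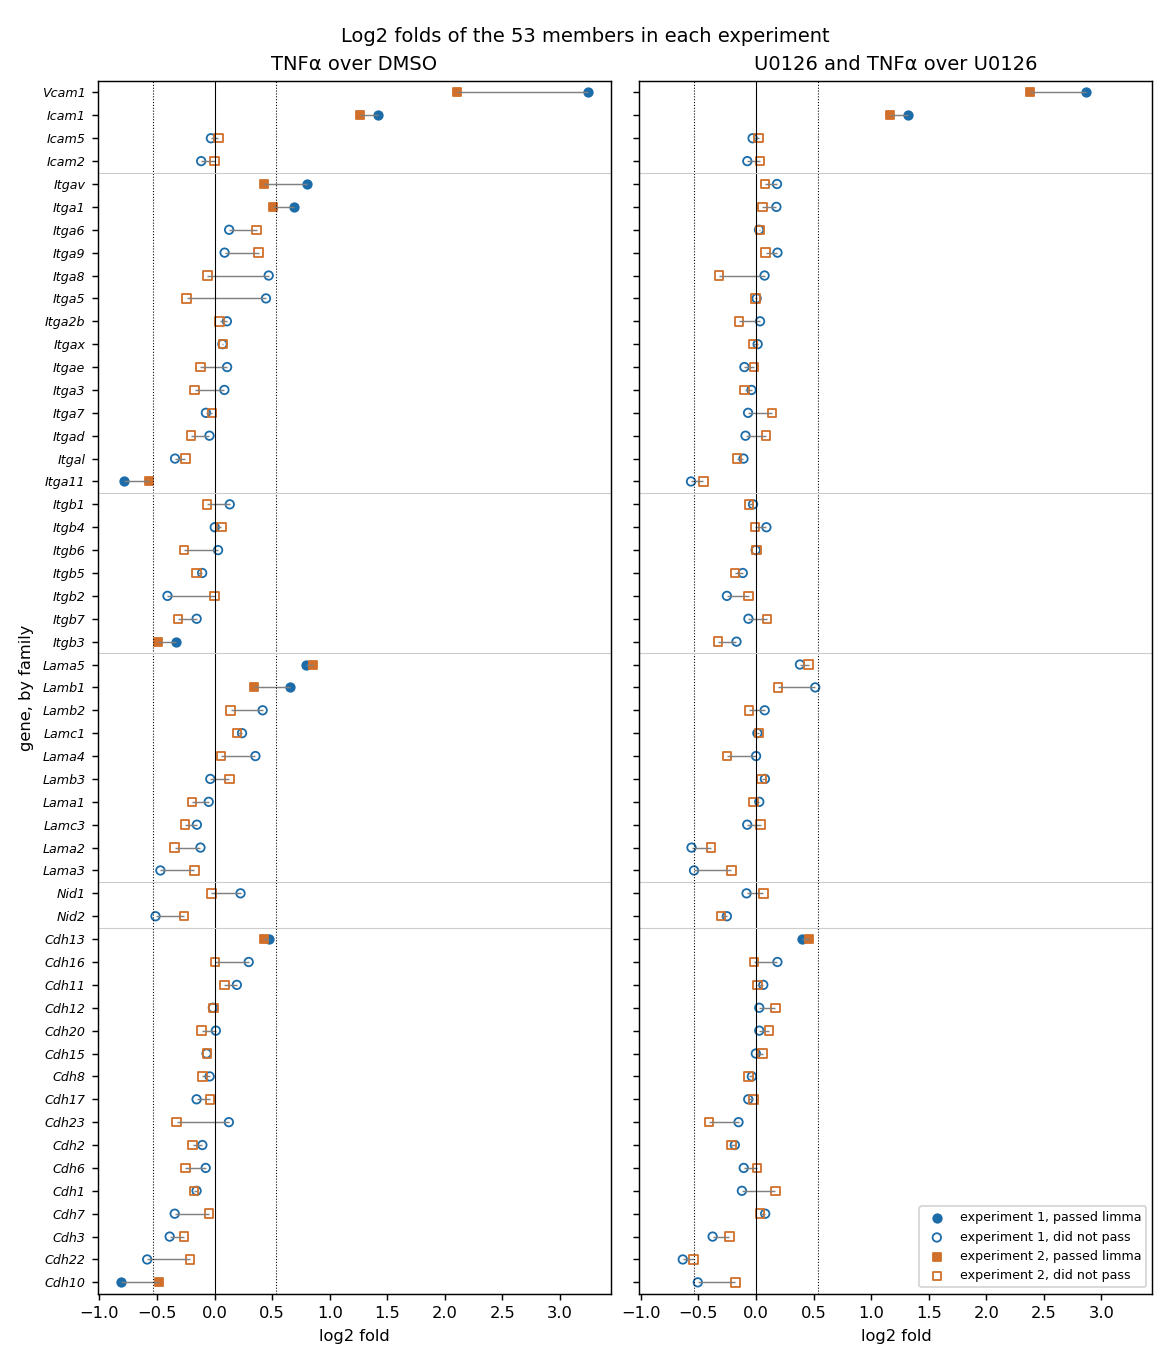
Log2 fold of each of the 53 genes in experiment 1 (circles) and experiment 2 (squares), for TNFα over DMSO (left) and U0126 and TNFα over U0126 (right), sorted within each family. Filled symbols passed limma in that comparison, and dotted lines mark the fold limit of the study's methods (a rise of 45% or the matching fall). The plot shows that Vcam1 and Icam1 stand far to the right in both panels, while Itgav and Itga1 lie right of 0.4 in the left panel and nearer 0 in the right one.

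Among the integrin alpha chains, 2 of 14 rose and 1 fell. Itgav, whose protein pairs with several beta chains to bind vitronectin, fibronectin and osteopontin, had 2050 and 1828 with TNFα, 1319 and 1380 with U0126 and TNFα, 1163 and 1308 with U0126, and 1175 and 1361 with DMSO. Both TNFα arrays lay above the other 6, and the arrays with both agents overlapped those without TNFα. TNFα raised Itgav 1.74-fold and 1.34-fold (log2 0.61 ± 0.10, adjusted p = 0.0197), a call lost with 5 of the 8 arrays left out in turn. The other 2 probe sets of Itgav passed as well, and log2 fold changes over the 3 ran between 0.61 and 0.88.

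Itga1, the alpha chain of a receptor for type IV and fibrillar collagens, had 2235 and 1678 with TNFα, 1601 and 1144 with U0126 and TNFα, 1416 and 1101 with U0126, and 1386 and 1178 with DMSO. The TNFα array was the highest of its experiment in each case, and the 3 others of an experiment lay close together. Itga1 rose 1.61-fold and 1.43-fold over DMSO (log2 0.60 ± 0.08, adjusted p = 0.00907). Itga11, the alpha chain of a receptor for fibrillar collagen, moved the other way, with 771 and 574 with TNFα, 1179 and 728 with U0126 and TNFα, 1744 and 999 with U0126, and 1327 and 852 with DMSO. TNFα alone gave the lowest value of each experiment and U0126 alone the highest. Its level with TNFα was 0.581 and 0.673 of that with DMSO (log2 -0.68 ± 0.09, adjusted p = 0.0129). Over the same arrays 6 of 8 chondrocyte markers fell with TNFα, with summed intensities of 121723 and 80237 with TNFα, against 162315 and 104613 with DMSO, and their part in the fall of Itga11 was not tested.

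Itga5, the alpha chain of the main fibronectin receptor, showed no common direction. It had 1355 and 1296 with TNFα, 1111 and 1379 with U0126 and TNFα, 1108 and 1385 with U0126, and 995 and 1534 with DMSO, higher than DMSO in experiment 1 and lower in experiment 2. Itga10, a cartilage collagen receptor chain, was not analysed here because no probe set named it alone.

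Of the 7 beta chains, Itgb3 fell. Its protein pairs with that of Itgav and, on platelets, with that of Itga2b. Itgb3 had 221 and 326 with TNFα, 201 and 277 with U0126 and TNFα, 226 and 348 with U0126, and 278 and 459 with DMSO, the highest value of each experiment being that with DMSO. TNFα gave 0.795 and 0.709 of the DMSO level (log2 -0.41 ± 0.08, adjusted p = 0.0335), a call that was lost with any 1 of the 8 arrays left out. Itgb1, the partner of Itga1, Itga5 and Itga11, had 9874 and 9892 with TNFα, 9607 and 9695 with U0126 and TNFα, 9782 and 10126 with U0126, and 9013 and 10368 with DMSO. By this probe set the Itgb1 arrays with TNFα lay between the 2 DMSO arrays. A second probe set of Itgb1 had 5878 and 4644 with TNFα, against 5314 and 4465 with DMSO, and did not pass.

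Among the laminins, 2 of 10 rose and none fell. Lama5, the alpha chain of the laminins most widespread in adult basement membranes, had 872 and 856 with TNFα, 773 and 602 with U0126 and TNFα, 594 and 439 with U0126, and 503 and 474 with DMSO. All arrays with TNFα lay above those without it, and those with U0126 and TNFα lay between the TNFα arrays and the U0126 arrays. TNFα raised Lama5 1.73-fold and 1.81-fold (log2 0.82 ± 0.11, adjusted p = 0.0113). This was read by 1 of 3 probe sets, and the other 2 had log2 fold changes of -0.16 and -0.13 and did not pass.

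Lamb1, the beta chain of most early laminins, had 1179 and 2014 with TNFα, 1037 and 1887 with U0126 and TNFα, 726 and 1652 with U0126, and 747 and 1592 with DMSO. Experiment 2 was higher throughout, and within each experiment both treatments with TNFα lay above both without it. Lamb1 rose 1.58-fold and 1.27-fold (log2 0.50 ± 0.11, adjusted p = 0.0483), a call that was lost with 7 of the 8 arrays left out in turn. Lama4, an alpha chain of vessel and muscle laminins, had 2707 and 2562 with TNFα, 1948 and 2132 with U0126 and TNFα, 1948 and 2541 with U0126, and 2117 and 2463 with DMSO. The TNFα array was the highest in both experiments, by more in experiment 1 than in experiment 2, and Lama4 did not pass.

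Neither nidogen passed, though Nid2 did so under 6 of the 16 alternatives. Nid2 had 7068 and 7062 with TNFα, 7919 and 6423 with U0126 and TNFα, 9438 and 7943 with U0126, and 10087 and 8488 with DMSO. Its arrays with TNFα lay below those without, and the difference from DMSO came just short of the threshold (log2 -0.39, adjusted p = 0.0510). Nid1 had 6843 and 9448 with TNFα, 6738 and 9906 with U0126 and TNFα, 7134 and 9482 with U0126, and 5855 and 9640 with DMSO. By this probe set the experiments differed more than the treatments. A second probe set of Nid1 was instead slightly lower in experiment 2 with each treatment, with 1206 and 1046 with TNFα, against 1105 and 1002 with DMSO.

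Of the 16 cadherins, Cdh13 rose and Cdh10 fell. Cdh13, a cadherin without a cytoplasmic tail that is held by a lipid anchor and binds adiponectin, had 924 and 905 with TNFα, 910 and 851 with U0126 and TNFα, 690 and 618 with U0126, and 664 and 672 with DMSO. The 4 arrays with TNFα lay above the 4 without. Cdh13 rose 1.39-fold and 1.35-fold (log2 0.45 ± 0.07, adjusted p = 0.0162), and another of its 3 probe sets also passed. Cdh10, a cadherin best known from the brain, had 367 and 337 with TNFα, 415 and 387 with U0126 and TNFα, 589 and 439 with U0126, and 644 and 470 with DMSO. All its arrays with TNFα lay below those without. Its level with TNFα was 0.570 and 0.717 of that with DMSO (log2 -0.64 ± 0.11, adjusted p = 0.0221).

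Cdh22, another brain cadherin, had 5960 and 7213 with TNFα, 6324 and 7809 with U0126 and TNFα, 9830 and 11364 with U0126, and 8947 and 8359 with DMSO. The arrays with TNFα lay below those without, but the gene did not pass over DMSO (log2 -0.40, adjusted p = 0.0754) or over U0126 (log2 -0.59, adjusted p = 0.0557). A second probe set of Cdh22, between 134 and 173 on all arrays, showed no common direction, and whether the first reads Cdh22 could not be checked here. Cdh2, the N-cadherin of condensing cartilage, had 320 and 692 with TNFα, 312 and 733 with U0126 and TNFα, 354 and 850 with U0126, and 344 and 791 with DMSO, and did not pass.

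In the presence of U0126, TNFα raised 3 of the 53 genes over U0126 alone, Vcam1, Icam1 and Cdh13, and lowered none. The 3 genes are 5.66% of the 53, beside 1.24% of all probe sets (0.831% higher, 0.406% lower). At an unadjusted p below 0.05 there were 15, of which 5 were higher and 10 lower, beside 12.5% of all probe sets. Vcam1 rose 7.29-fold and 5.19-fold (log2 2.62, adjusted p = 0.00655), Icam1 2.49-fold and 2.25-fold (log2 1.24, adjusted p = 0.00136) and Cdh13 1.32-fold and 1.38-fold (log2 0.43, adjusted p = 0.0404). The 4 other genes that had risen over DMSO did not pass over U0126, with log2 fold changes of 0.42 for Lama5 (adjusted p = 0.165), 0.35 for Lamb1 (adjusted p = 0.227), 0.13 for Itgav (adjusted p = 0.656) and 0.12 for Itga1 (adjusted p = 0.598). Itga11 had a log2 fold change of -0.51 (adjusted p = 0.0631). With any 1 of the 4 arrays compared left out, Icam1 was the 1 gene of the 53 that passed, and with no experiment term none did.

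Whether the response differed with U0126 was tested by the difference of the 2 log2 fold changes, that over U0126 minus that over DMSO. No gene of the 53 passed, nor did any probe set of the array (0.0%). At an unadjusted p below 0.05 there were 4 of the 53 genes, beside 9.13% of all probe sets, so the count is near the background. These were Itga1 with a difference of -0.48 (95% interval -0.74 to -0.23, adjusted p = 0.499), Itgav with -0.48 (-0.81 to -0.16, adjusted p = 0.508), Lama5 with -0.40 (-0.77 to -0.03, adjusted p = 0.529) and, in the other direction, Itgb7 with 0.25 (0.01 to 0.50, adjusted p = 0.538).

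On the log2 scale, 19.3% of the response of Itga1 to TNFα was kept with U0126, 21.0% of that of Itgav and 50.9% of that of Lama5. Of the genes that had fallen, Cdh10 kept 53.2% (difference 0.30, interval -0.05 to 0.66), Itgb3 60.6% (0.16, -0.10 to 0.42) and Itga11 75.4% (0.17, -0.15 to 0.48). Lamb1, which had risen, kept 70.7% (-0.15, -0.50 to 0.21). For Icam1 92.5% was kept, with a difference of -0.10 (-0.34 to 0.14), and for Cdh13 95.1%, with -0.02 (-0.25 to 0.21). The difference for Vcam1 was -0.05, but its interval was wide (-0.87 to 0.77), and the experiments gave -0.37 and 0.27. These intervals still hold differences in both directions, so equal responses were not shown. The genes were picked by their response over DMSO, the base of each percentage, so the shares kept tend to come out low.

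**Figure D3:**
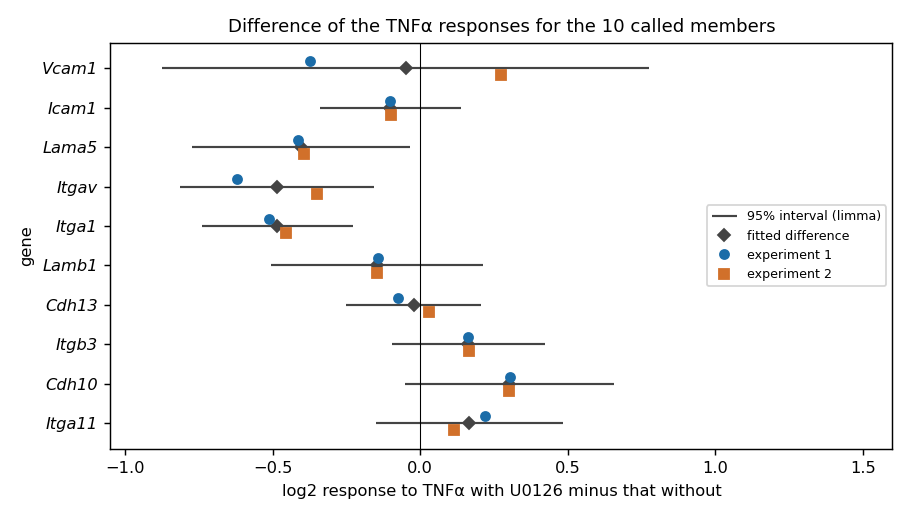
Difference of the TNFα responses (log2 response with U0126 minus that without) for the 10 genes that passed limma for TNFα over DMSO. The genes were thus picked by a response that enters the difference. Diamonds are the fitted difference with its 95% interval, circles experiment 1 and squares experiment 2. The intervals of Itga1, Itgav and Lama5 lie below 0, and none of the 10 passed after adjustment over all probe sets.

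Between the 2 treatments with TNFα, none of the 53 genes passed for U0126 and TNFα over TNFα (0.254% of all probe sets did), while 2 were higher and 7 lower at an unadjusted p below 0.05 (12.7% of all probe sets). Vcam1 with both agents was at 0.457 and 0.634 of its level with TNFα (log2 -0.89, adjusted p = 0.222), Itgav at 0.644 and 0.755 (log2 -0.52, adjusted p = 0.0994) and Itga1 at 0.716 and 0.682 (log2 -0.52, adjusted p = 0.0655). Without TNFα, U0126 over DMSO likewise gave no gene that passed (0.058% of all probe sets did), and 7 of the 53 at an unadjusted p below 0.05 (13.3% of all probe sets). Vcam1 with U0126 alone was at 0.592 and 0.524 of its DMSO level (log2 -0.84, adjusted p = 0.289), also short of the threshold.

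The study's methods instead used a fold limit, which is no test: a probe set counted when each experiment by itself gave a rise of at least 45%, or each the matching fall. By this rule Vcam1, Icam1 and Lama5 were higher with TNFα than with DMSO and Itga11 was lower, 4 of 53 genes beside 2.02% of all probe sets (1.65% higher, 0.37% lower). Itgav missed it by its fold in experiment 2 (1.34) and Itga1 by its own (1.43), although the other 2 probe sets of Itgav reached it. For U0126 and TNFα over U0126 the genes were Vcam1 and Icam1, higher, and Cdh22, by the probe set above, lower (1.21% of all probe sets, 0.905% higher and 0.309% lower). For U0126 over DMSO (0.11% of all probe sets lower) and for U0126 and TNFα over TNFα (0.506% lower) the rule picked Vcam1, lower in both. A response was read as MEK/ERK dependent when U0126 and TNFα over U0126 stayed within the limit in both experiments. By this reading that of Lama5 was dependent, with log2 folds of 0.38 and 0.46, and those of Vcam1 and Icam1 were not, being past the limit in both experiments. Itga11 was split, with 0.676 of the U0126 level in experiment 1, past the limit, and 0.729 in experiment 2, within it.

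Some adhesion genes also differed between the 2 experiments. With each of the 4 treatments, Cdh2 (2.16-fold to 2.40-fold), Lama2 (1.92-fold to 2.41-fold), Lamb1 (1.71-fold to 2.27-fold) and Vcam1 (1.69-fold to 3.73-fold) were higher in experiment 2 than in experiment 1. Itga6, an alpha chain of laminin receptors, was at 0.379 to 0.487 of its experiment 1 level in experiment 2. These 5 genes were past the fold limit with every treatment, beside 3.09% of all probe sets (1.88% higher and 1.2% lower in experiment 2). For Cdh2 and Itga6 this holds for the probe set that stands for the gene. Another of the 3 probe sets of Cdh2 stayed between 168 and 191 on all arrays, and the last was higher in experiment 2 by less. Of the 4 probe sets of Itga6, 1 stayed between 198 and 227, and the rest were also lower in experiment 2. The shift has 1 experiment on each side and was not tested. Of 13 macrophage and leukocyte markers, Adgre1 and Lyz2 were likewise past the limit upward with every treatment and the other 11 were not, among them Ptprc, Itgam and Aif1. The 13 markers summed to between 4525 and 5644 in experiment 2 and between 3814 and 4646 in experiment 1. Past the limit with every treatment were also 1 of 8 endothelial markers (Tek) and 1 of 6 synovial and fibroblast markers (Dpt), higher in experiment 2, and 3 of 8 chondrocyte markers (Acan, Hapln1 and Cnmd), lower. Their part in the shift was not tested.

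**Figure D4:**
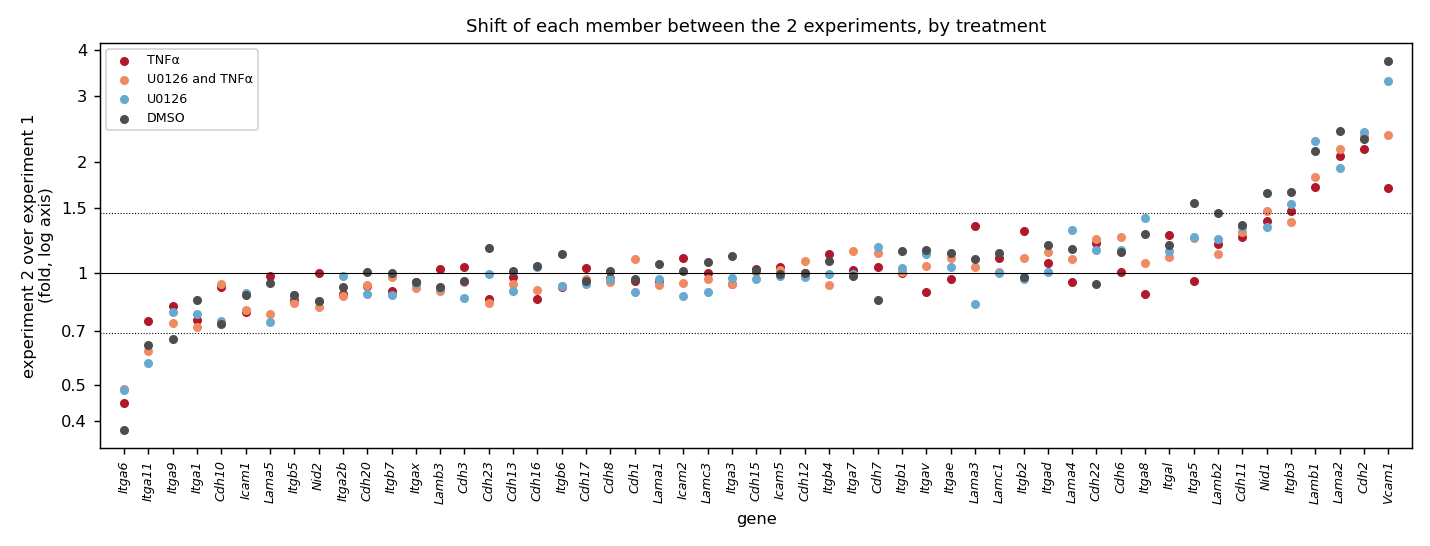
Intensity in experiment 2 over that in experiment 1 (fold, log axis) for each of the 53 genes, with 1 point per treatment, ordered by the mean shift. Dotted lines mark the fold limit of the study's methods. Itga6 at the left and Lamb1, Lama2, Cdh2 and Vcam1 at the right lie past the lines with all 4 treatments.

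Partners of these genes are read against the 5.19% of all probe sets and 6.33% of genes that passed for TNFα over DMSO. Of 21 integrin adaptors 4 rose over DMSO (Lims2 by log2 1.68, Cib1 by 0.92, Tns3 by 0.65 and Zyx by 0.29) and Parvb fell (log2 -0.32). These proteins bind the integrin tails or join them to actin. Of 16 integrin ligands, Spp1, which encodes the Itgav ligand osteopontin, was the one that rose (log2 2.08, adjusted p = 0.0324), a share near that background. Of 15 other basement membrane proteins 4 rose and none fell: Col18a1 (log2 1.55), Ntn1 (1.12), Dag1 (0.69) and Hspg2 (0.46), of which Dag1 and Hspg2 bind laminins. None of 15 catenin and desmosome genes passed. Among 16 selectins and other adhesion receptors, Cd44, the hyaluronan receptor, rose (log2 1.25), as did Amigo2 (0.64) and Jam3 (0.37), and Jam2 fell (log2 -0.45). Of 14 genes listed as ERK output, Ier3 rose over DMSO (log2 1.80) and Spry4 fell (log2 -0.39). None of these 14 passed for U0126 over DMSO, with a median log2 fold change of -0.24, beside -0.002 over all probe sets. The falls were uneven, and some were large: Egr1 had 1263 and 1660 with U0126, against 3571 and 4644 with DMSO. Ier3 was slightly higher with U0126 in both experiments, and Phlda1 and Myc went opposite ways. Of 13 NFκB targets, the class that holds Icam1 and Vcam1, 12 rose with TNFα over DMSO. With U0126 and TNFα over U0126 12 rose, where 1.24% of all probe sets passed. Several of the 13 had already been listed by the study as raised by TNFα on these same arrays, so the counts are no independent support. The part of NFκB in the rise of Icam1 and Vcam1 was not tested.

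Across the 8 arrays the median intensity ran between 365.06 and 378.16, and no array stood apart by it. Chondrocyte markers were high on all arrays, with Col2a1 between 24280 and 32100, and the fibroblast collagen Col1a1 was also high, between 28730 and 34890. With 2 arrays per treatment the precision is limited. The p-values rest in part on how far the treatment differences varied between the 2 experiments, with the shift between the experiments taken out by the block. The other part of each spread is an estimate that limma shares over all probe sets (3.913 prior beside 3 residual degrees of freedom). A gene that did not pass may still have changed.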

How the data were processed

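Total RNA was hybridised to Affymetrix RAT230_2.0 arrays, 1 for each of 8 cultures. The deposited values are linear intensities, 1 per probe set, which the authors summarised with RMA, per the labels (version not stated), before further steps that the values do not show. RMA shares its fit across arrays and compresses changes of dim probe sets. No column of the authors' own comparisons was used.

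The 57 control probe sets were left out and 31042 were tested. Genes were named from the platform annotation of 2016: 20826 probe sets named 1 gene, 436 several and 9780 none, and all 53 genes had the same symbol in RefSeq. Log2 intensities were centred on each array's median and fitted with limma 3.58.1 (R 4.3.3) on all 8 arrays, with treatment and experiment as terms, and p-values were adjusted over all tested probe sets (Benjamini-Hochberg, threshold 0.05). Folds were taken within an experiment. The experiment was kept as a block because the study's folds are within experiments. After the treatment means were taken out, arrays of 1 experiment correlated at 0.728 to 0.829 over probe sets. The fit was also run on simulated data built from the means and spreads of these arrays, and no result here rests on that run.

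The genes, lists, markers and tests were chosen with earlier results of these data known. Values on each array are given for genes that passed limma or reached the fold limit in both experiments in any comparison, and for Cdh2, Itgb1, Itga5, Lama4, Nid1 and Nid2. Genes of other lists are named where they passed for TNFα over DMSO, at most 4 per list by smallest adjusted p. Some ERK output genes are also named for their values with U0126 alone, though none passed there. Alternatives were another normalization, a filter, other limma settings, no block, fewer arrays, all probe sets of a gene and other folds.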

Additional observations from a re-analysis of the deposited data

Results flagged for a closer look

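For 2 cadherins every experiment moved one way with TNFα over DMSO and the other way with U0126 and TNFα over U0126. Cdh7 had folds of 0.787 and 0.967 over DMSO and of 1.06 and 1.02 over U0126, a difference of the log2 responses of 0.25. Cdh12 had folds of 0.990 and 0.992 over DMSO and of 1.02 and 1.12 over U0126, a difference of 0.11. Neither difference passed limma (adjusted p = 0.643 for Cdh7 and 0.714 for Cdh12), and both genes were dim on all arrays, Cdh7 between 47.1 and 61.1 and Cdh12 between 19.1 and 21.5.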

How the results depend on the processing

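With no replicate block, so that the 2 experiments counted as spread, 0 of the 53 genes passed limma for TNFα over DMSO in place of 10, and 0 in place of 3 for U0126 and TNFα over U0126. With only the 4 arrays compared, 4 genes passed for TNFα over DMSO and 7 for U0126 and TNFα over U0126. The genes gained in the latter were Cdh22, Itga11 and Lama2, which were lower, and Lama5, which was higher. The same setting gave 1 gene (Vcam1) for U0126 over DMSO and 2 (Itga1 and Vcam1) for U0126 and TNFα over TNFα. Leaving out 1 array gave 2 to 9 genes for TNFα over DMSO, with 2 (Icam1 and Vcam1) without DMSO in experiment 1 and 4 without TNFα in experiment 1. Itgb3 was lost with any array left out, Lamb1 with any but TNFα in experiment 2, and Itgav without either DMSO array, TNFα in experiment 1 or either array with both agents. It gave 1 to 4 for U0126 and TNFα over U0126, where leaving out any 1 of the 4 arrays compared kept Icam1 and lost Vcam1 and Cdh13. It gave 0 to 3 for U0126 and TNFα over TNFα, with Itga11, Itgav and Vcam1 passing without TNFα in experiment 2. With the mean of all probe sets of a gene, 5 genes passed for U0126 and TNFα over U0126 and 1 (Itga1) for U0126 and TNFα over TNFα, and 13 passed for TNFα over DMSO, without Lama5 (log2 0.18) and with Cdh3, Itgal, Lamc1 and Nid2. With quantile normalization Lamb1 did not pass (adjusted p = 0.0642). Nid2 passed under 6 of the 16 alternatives: that one, the mean of all probe sets, the lowest 40 percent left out, a trended and a robust prior, and without TNFα in experiment 2. Under the fold rule, TNFα over DMSO gave 8 genes at 1.3-fold, 2 at 2-fold and 7 by the mean fold, in place of 4. U0126 over DMSO gave 0 at 2-fold in place of 1, U0126 and TNFα over U0126 gave 7 at 1.3-fold in place of 3, and U0126 and TNFα over TNFα gave 3 at 1.3-fold and 0 at 2-fold in place of 1. The difference of the responses uses all 8 arrays, so it has no value from 4. No called gene changed direction under these alternatives, and the causes of the other changes were not tested. The number of arrays limits the precision.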
